A study of Pseudotsuga menziesii with 72 samples.

Results

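Nightfall in Douglas-fir needles was followed by comparing transcript levels at 22:00 with those at 18:00 in the same trees on the same day. The comparison rests on 24 of the 72 libraries of a 2-day series, 12 at each clock time, chosen by the hour in their titles: hours 16 and 40 of the series are 18:00 on the first and second evening, and hours 20 and 44 are 22:00. All came from 6 untreated Pseudotsuga menziesii trees, 1A, 1B, 2A, 2B, 3A and 3B, which were 3 years old, belonged by the protocol to 3 half-sib families of 1 Oregon Siskiyou low-elevation source and grew at 1 site in Corvallis, Oregon. Each library holds polyA RNA of 8 to 12 needles of the 2012 cohort, pooled from branches on 4 sides of a tree in September, so the comparison covers 6 trees on 2 dates. Clock time is the title hour counted from the first collection at 2 AM. The family tags of families 1 and 2 hold the same number, and families were not compared. A separate collection-time label disagreed with the title for 22 of the 24 libraries and was not used.

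Sunset in early September falls between the 2 collections, so 18:00 needles were still in daylight and 22:00 needles were in darkness. In flowering plants, where it is best studied, the daily cycle of transcripts is driven both by light and by a circadian clock, a loop of transcription factors that repress each other in turn through the day and night. In leaves, photosynthesis and carbon fixation give way after dusk to starch breakdown and respiration, and many transcripts of these processes cycle. The deposited files pair no transcript with a gene name or sequence, so members of these processes and markers of needle tissue could not be looked up. In whole needles, fewer cells of a type and less RNA per cell cannot be told apart.

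The 24 libraries held 14.0 to 55.9 M counts (M for 1000000) (median 22.64 M). The deepest was tree 3A at 18:00 on the first evening, and the next deepest held 35.1 M. All 24 lay nearest their own tree when compared with the mean of each tree's other libraries. Of 180879 transcripts, 41765 had enough counts to be tested, and these held 97.1% to 99.5% of each library's counts. Levels are given in counts per M (CPM) after trimmed-mean (TMM) scaling.

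Of the transcripts tested, 30.4% changed between 18:00 and 22:00, about as many upward as downward. Of 41765, 6391 rose (15.3%) and 6324 fell (15.1%), together 12715 (30.4%), at an adjusted p under 0.05 in edgeR's quasi-likelihood test with tree and day in the model. The median rise was 0.63 on the log2 scale (1.54-fold) and the median fall was −0.44 (1.36-fold), while the median over all tested transcripts was −0.02. Of the risen transcripts, 1880 (29.4%) were higher at 22:00 in all 12 pairs of tree and day, against 4.51% of all tested. Of the fallen, 1688 (26.7%) were lower in all 12, against 4.05%. For 102 risen and 68 fallen transcripts the 12 libraries of one clock time did not overlap the 12 of the other (0.407% of those tested). These counts over pairs and libraries describe transcripts that the same libraries picked. Without the pair that holds the deepest library, tree 3A on the first evening, 6398 rose and 5659 fell. In a fit on all 72 libraries, which tested 50101 transcripts, 4733 rose and 3355 fell, so fewer passed and rises led.

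Among large changes, rises outnumbered falls. At least a 2-fold rise was found for 1539 transcripts (3.68%) and at least a 2-fold fall for 696 (1.67%). At 4-fold the numbers were 249 and 38, and at 8-fold they were 39 and 2. With at least 1 CPM in every library, 262 rose and 95 fell at least 2-fold. The lean turned (4529 up, 6761 down) in a fit with no filter on low counts. Without the filter, the first evening alone had 2615 rises and 4327 falls of at least 2-fold. The second evening alone kept the lean to rises, with 3254 and 2027. In the unfiltered fit of both evenings, adjusted p-values were far smaller for the transcripts named below too (psme_t031358, edgeR adjusted p = 1.03e-267 against 4.0e-07). Why the lean turned was not tested. Among the transcripts kept, falls outnumbered rises only in the most abundant class. In 4 equal classes of rising abundance (median 0.485, 1.39, 5.58 and 30.1 CPM), 12.6%, 16.9%, 18.3% and 13.5% rose, and 11.3%, 12.9%, 15.2% and 21.1% fell. In the most abundant class the median size was nevertheless larger for rises (0.37 on the log2 scale) than for falls (−0.25). The smallest change that could pass depended on abundance, as the median standard error fell from 0.225 in the lowest class to 0.0601 in the highest. Among the 1000 most abundant transcripts (136 CPM and over) 99 rose and 244 fell. None of the 10 most abundant passed the test, with log2 changes from −0.44 to 0.10.

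**Figure D1:**
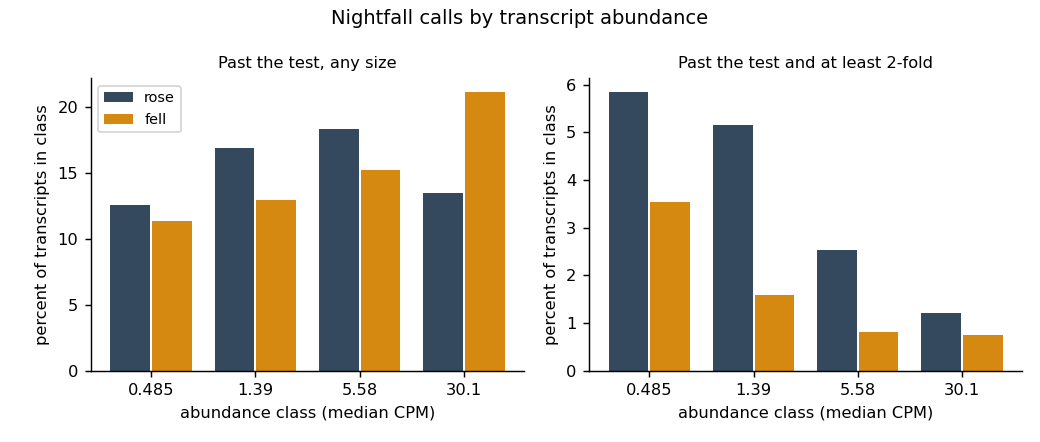
Percent of transcripts that rose (dark bars) or fell (orange bars) from 18:00 to 22:00 in each of 4 abundance classes, named by their median CPM, for all calls (left) and for calls of at least 2-fold (right). Falls outnumbered rises only in the most abundant class (21.1% against 13.5%), and at 2-fold rises led in every class of the transcripts kept. That order turned for all transcripts together in a fit of both evenings with no filter, but not in such a fit of the second evening alone. In the unfiltered fit of both evenings, adjusted p-values were far smaller for the named transcripts too. Why the order turned was not tested.

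The transcripts that rose together held 8.27% ± 0.74 of the scaled counts at 18:00 and 11.5% ± 1.49 at 22:00 (SD, n = 12 libraries each). The fallen held 19.8% ± 1.47 at 18:00 and 15.99% ± 1.48 at 22:00. These shares describe transcripts that the same comparison picked.

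The largest rises and falls among transcripts of at least 10 CPM were read in every library. By the rule that all 12 pairs move one way, 622 risen and 777 fallen transcripts could be named, and the 2 largest of each are given. The transcript psme_t055959 stood at 0.848 to 7.84 CPM at 18:00 (median 1.99) and at 9.39 to 44.4 CPM at 22:00 (median 24.7). Every 22:00 library lay above every 18:00 library. The log2 change was 3.27 ± 0.25 (SE; edgeR adjusted p = 1.03e-09), and the ratio within pairs ran from 2.203 in tree 3B on the second evening to 32.7 in tree 3A on the first. Scaled over all 72 libraries, it averaged 21.9 ± 7.7 CPM at 2:00 and 21.0 ± 8.0 at 6:00, but 1.82 ± 1.19 at 10:00 and 1.79 ± 0.93 at 14:00 (SD, n = 12 each), so its high level lasted from 22:00 to 6:00.

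The transcript psme_t031358 stood at 3.21 to 19.7 CPM at 18:00 (median 6.63) and at 14.2 to 271 CPM at 22:00 (median 43.6). The groups overlapped, because tree 3A on the second evening reached only 14.2 CPM at 22:00, while tree 1A on the first and tree 2B on the second stood at 19.7 and 15.6 CPM at 18:00. Its log2 change was 2.90 ± 0.33 (edgeR adjusted p = 4.0e-07), with a rise in all 12 pairs from 2.86-fold in tree 2B to 37.6-fold in tree 3B, both on the second evening. Unlike psme_t055959 it did not stay high. Over all 72 libraries its mean was 69.7 ± 73.4 CPM at 22:00, 12.7 ± 12.7 at 2:00, 13.9 ± 15.9 at 6:00, 42.9 ± 35.2 at 10:00 and 20.7 ± 11.8 at 14:00 (SD, n = 12 each), with wide spread between libraries at every time.

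The largest fall was that of psme_t044566, from 60.3 to 552 CPM at 18:00 (median 191.6) to 3.64 to 47.3 CPM at 22:00 (median 20.7). No libraries of the 2 clock times overlapped, and tree 2B was lowest at both times on both evenings. The log2 change was −3.26 ± 0.17 (edgeR adjusted p = 3.97e-12). The level at 18:00 was itself past the daily high, which over all 72 libraries was at 14:00 (612 ± 224 CPM, SD, n = 12). The transcript psme_t024687 stood at 28.1 to 89.5 CPM at 18:00 (median 49.2) and at 3.09 to 11.4 CPM at 22:00 (median 6.33), again without overlap. Its log2 change was −2.85 ± 0.13 (edgeR adjusted p = 3.97e-13), the trees' own changes were alike (−3.18 to −2.53), and its mean at 14:00 was 166 ± 41 CPM (SD, n = 12).

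**Figure D2:**
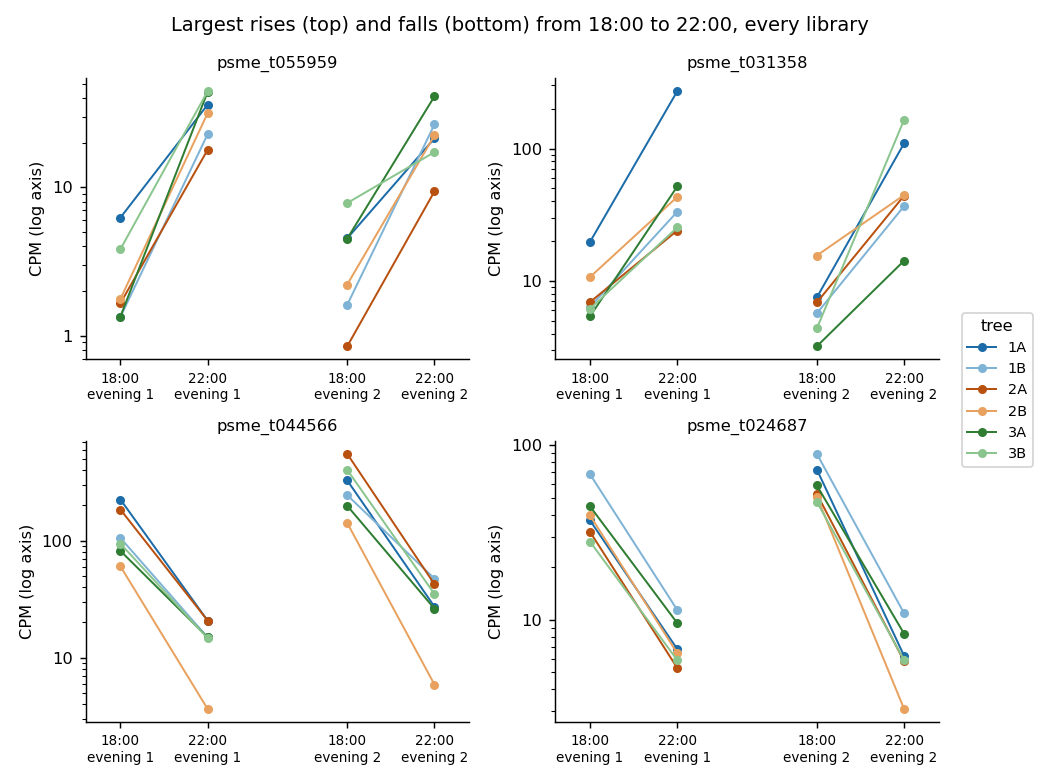
Level in CPM (log axis) of the 2 largest rises (top) and 2 largest falls (bottom) at 18:00 and 22:00 on each evening, with a line for each tree. All 12 lines rise in the upper panels and fall in the lower ones, and only psme_t031358 has overlapping clock times.

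Most transcripts that changed on one evening moved the same way on the other. Each evening was fitted alone, on 12 libraries that the other fit did not use, although the 6 trees are the same. On the first evening 2961 of 35714 transcripts rose (8.29%) and 2494 fell (6.98%), and on the second 4135 of 37732 rose (11%) and 3477 fell (9.21%). Of the first evening's rises measured on the second, 95.7% (2789 of 2914) were also up, against 48.5% of all transcripts, and 67.2% passed again. Of its falls, 93.5% (2322 of 2484) were also down, against 51.5%, and 57.4% passed again. The rises had a median log2 change of 0.70 on both evenings, and the falls one of −0.49 on the first and −0.43 on the second. Taken the other way, 94.4% of the second evening's rises and 95.7% of its falls had the same direction on the first, where their medians were smaller (0.81 against 0.49 for rises, −0.58 against −0.35 for falls). The larger median is in each case that of the evening that picked the transcripts. For the first evening's rises the 2 medians were nearly equal (0.698 and 0.696). Without tree 2B the first evening passed 1879 rises and 1309 falls, and without tree 2A 1509 falls. Both evenings passed 3387 transcripts, of which 1957 rose both times, 1425 fell both times and 5 went opposite ways. Across the 35199 transcripts tested on both, the log2 changes had a Pearson correlation of 0.769 (Spearman 0.641), a description over transcripts, which are not independent.

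**Figure D3:**
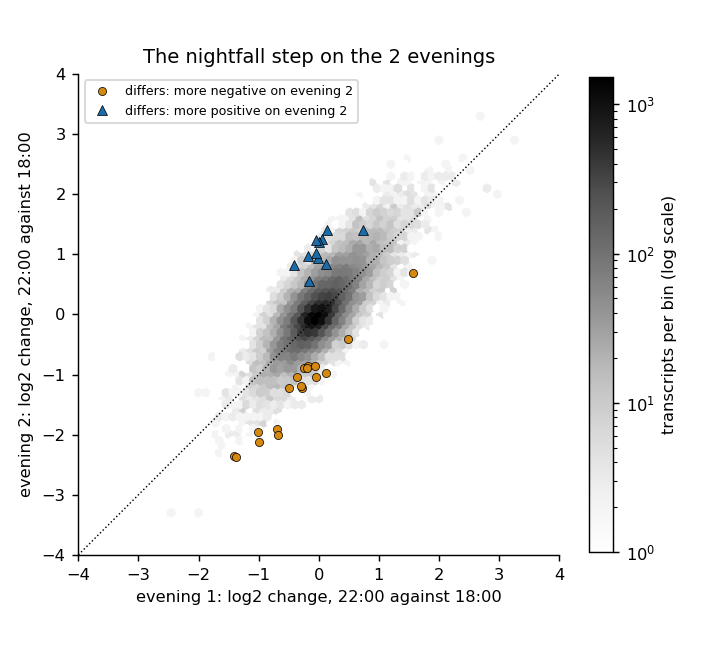
Log2 change from 18:00 to 22:00 on the second evening (vertical) against the first (horizontal), from separate fits, as the density of 35199 transcripts (5 lie beyond the axes), with the line of equal change dotted. Orange circles (18) and blue triangles (11) mark transcripts whose step differed between evenings, and most lie farther from 0 on the vertical axis.

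A direct test of the difference passed few transcripts, and nearly all of these had the larger step on the second evening. Of 41765 transcripts, 29 passed for the interaction of day with clock time (0.0694%; 4241, or 10.2%, at an unadjusted p under 0.05), and 27 of these had the larger step on the second evening in the separate fits. In 18 the step was more negative on the second evening, and 15 of these had a log2 step below 0 on both evenings. In 11 it was more positive, of which 5 had a step above 0 on both evenings and 6 had steps of opposite sign. These are counts of sign alone, and some first-evening steps were near 0. All 18 stood higher at 18:00 on the second day than on the first, and 17 of them lower at 22:00. All 11 showed the reverse at both times. The test picked these transcripts on the difference between the day shifts at 18:00 and 22:00. That pick favours shifts of opposite sign, so the pattern is not a separate result. The count of 29 depended on single trees. It was 0 without tree 2B, 1 without 2A, 5 without 1B, 18 without 3A, 19 without 1A and 54 without 3B, and with DESeq2 it was 223. It was 2 in the fit on all 72 libraries, 4 at an adjusted p under 0.01 and 0 with the tree left out of the model. Each evening is 1 date, so the evening and anything else about that date cannot be told apart.

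The largest evening differences in each direction at 10 CPM or more are given next. Both were picked on these same libraries, and all 29 transcripts that passed had a difference of one sign in 6 of 6 trees. The transcript psme_t025353 did not pass on the first evening (log2 change −0.05, edgeR adjusted p = 0.765), at 8.52 to 15.2 CPM at 18:00 (median 12.7) and 7.92 to 15.3 at 22:00 (median 11.7). On the second it rose from 5.68 to 8.20 CPM (median 6.20) to 12.1 to 23.2 (median 14.7), without overlap. The difference between the 2 steps was 1.31 ± 0.18 on the log2 scale (edgeR adjusted p = 0.00583), positive in 6 of 6 trees, and it no longer passed without tree 2A (adjusted p = 0.0638) or 2B (0.101), with a range of 2.38e-10 to 0.802 over all alternatives. The transcript psme_t044649 fell on both evenings, from a median of 13.7 CPM at 18:00 (10.8 to 19.7) to 7.70 at 22:00 (5.33 to 8.67) on the first, and from 30.7 (22.3 to 35.1) to 6.22 (5.20 to 9.66) on the second. The evenings thus differed at 18:00, where the levels did not overlap, and were near each other at 22:00. In this psme_t044649 was unlike most of the 18 more negative transcripts. Its shift from the first to the second day at 22:00 was −0.09 on the log2 scale, against their median of −0.44. The difference between its 2 steps was −1.12 ± 0.21 (edgeR adjusted p = 0.0347), negative in 6 of 6 trees. It did not pass without any 1 of the 6 trees (adjusted p 0.0567 to 0.188) or with each tree and day as its own block (0.0805), with a range of 2.26e-08 to 0.913 over all alternatives.

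**Figure D4:**
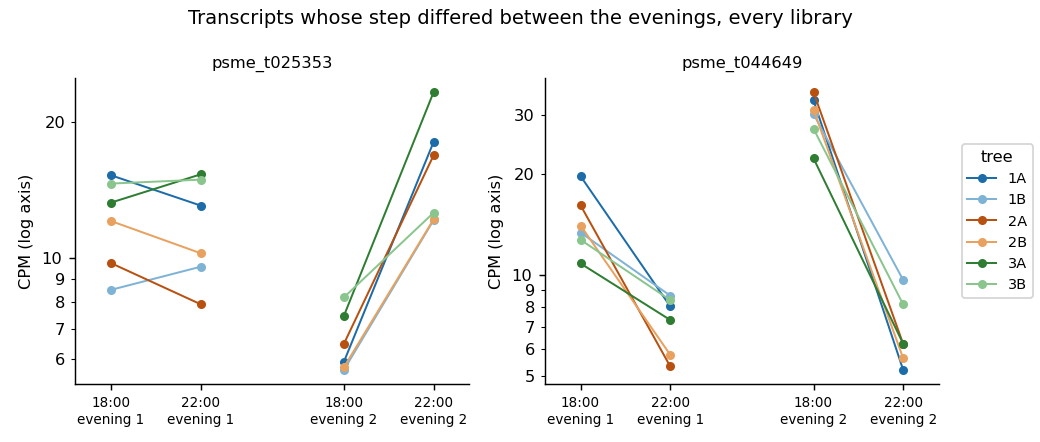
Level in CPM (log axis) of the 2 transcripts of largest evening difference, at 18:00 and 22:00 on each evening, with a line for each tree. On the left the first evening's levels overlap and those of the second rise in all 6 trees, and on the right the 18:00 levels of the second evening all lie above those of the first.

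A larger second step was also seen in transcripts chosen without these libraries. Those that differed between 2:00 and 14:00 were taken from 24 other libraries of the same trees. The 7459 that were higher at 2:00 had a median step of 0.19 on the first evening and 0.31 on the second (log2), and 64.1% were more positive on the second, against 51.4% of all tested. The 7155 higher at 14:00 had a median step of −0.19 and −0.30, and 66.1% were more negative on the second evening, against 48.6%. By tree, the median of the second set went from −0.16 to −0.29 in 1A, −0.16 to −0.43 in 1B, −0.15 to −0.25 in 2A, −0.17 to −0.29 in 2B, −0.25 to −0.26 in 3A and −0.20 to −0.22 in 3B. It was more negative on the second evening in 6 of 6 trees, and the first set was more positive in 5 of 6, the exception being 3B (0.22 and 0.17). These are medians over transcripts, given without a test.

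Differences between trees in the step were tested directly. A test of tree by clock time passed 0 of 41765 transcripts in edgeR (2944, or 7.05%, at an unadjusted p under 0.05), 2 with limma-voom and 326 with DESeq2, so a failure to pass does not show that trees were equal. Without tree 1B the edgeR count was 180. Of the risen transcripts, 4441 (69.5%) were up in each of the 6 trees, and of the fallen, 4538 (71.8%) were down in each, while 10718 (25.7%) of all tested had one direction, up or down, in 6 trees. These shares and the medians by tree describe transcripts that the pooled test picked from the same libraries. The median step of the risen set was 0.55 to 0.67 in the trees and that of the fallen set −0.43 to −0.38. Each tree's own step was a contrast in the joint fit of 24 libraries, which shares its spread over trees. By this contrast tree 1A passed 3136 transcripts (7.51%), 1B 2229 (5.34%), 3B 1786 (4.28%), 2B 1362 (3.26%), 3A 1289 (3.09%) and 2A 1194 (2.86%). The transcript of smallest p in the tree test, psme_t012853 (edgeR adjusted p = 0.115), had a log2 step of 1.72 in tree 1A and of −0.59 to 0.29 in the others. In tree 1A it was up on both evenings (2.11 and 1.43), and without tree 1A its adjusted p was 1.0, and over all alternatives it ran from 2.16e-21 to 1.0.

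Many transcripts that rose at nightfall were also high later in the night, and many that fell were high in the afternoon. In the 24 libraries of 2:00 and 14:00, which the step did not use, 18.4% of 42462 transcripts were higher at 2:00 and 17.7% higher at 14:00 (edgeR adjusted p under 0.05). Of the nightfall rises measured there, 3371 of 6158 (54.7%) were higher at 2:00 and 475 (7.71%) higher at 14:00, with a median log2 difference of 0.49. Of the falls, 3435 of 6161 (55.8%) were higher at 14:00 and 74 (1.2%) higher at 2:00, with a median of −0.44. Over the 6 clock times, 36.3% of the risen transcripts had their highest mean at 22:00 and 29.1% at 6:00, against 13.8% and 18.6% of all tested. The fallen were highest at 18:00 in 50.8% and at 14:00 in 35.7%, against 20.4% and 16.4% of all tested. They were lowest at 6:00 in 35.8%, against 20.2%. The levels at 18:00 and 22:00 in these courses are those that picked the transcripts. By that pick no risen transcript was highest at 18:00, and no fallen one was highest at 22:00 or lowest at 18:00. This raises their shares at the other clock times too.

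**Figure D5:**
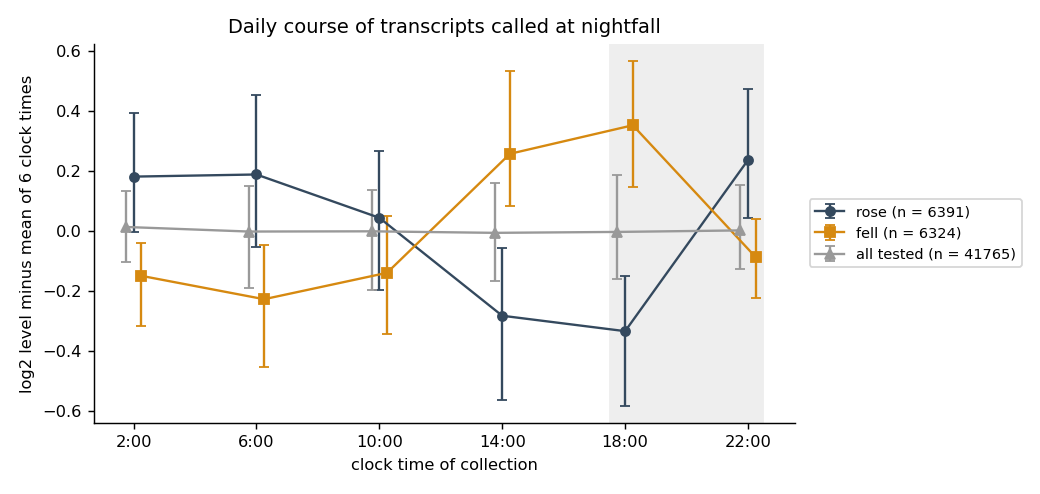
Median log2 level over transcripts, relative to each transcript's mean of 6 clock times, with bars from the lower to the upper quartile, for transcripts that rose (dark circles), fell (orange squares) or were tested (grey triangles), with the 18:00 and 22:00 collections shaded. The risen set went from −0.33 at 18:00 to 0.24 at 22:00 and stood at 0.18 at 2:00 and 0.19 at 6:00, while the fallen set went from 0.35 to −0.09 and reached −0.23 at 6:00.

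How evenly the counts were spread over transcripts was compared as well. The 10 top transcripts of each library held 14.9% ± 3.8 of its counts at 18:00 and 13.7% ± 2.5 at 22:00 (SD, n = 12). The share was lower at 22:00 in 6 of 6 trees averaged over the evenings, by 1.22 percentage points (exact two-sided sign-flip permutation test over 6 trees, p = 0.0312, the smallest it can give, and 0.0625 adjusted over the 2 measures taken), but higher in 5 of the 12 single pairs. The number of transcripts that held 50% of the counts was 581 ± 151 at 18:00 and 638 ± 100 at 22:00, higher in 4 of 6 trees (exact p = 0.125, adjusted 0.125).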

How the data were processed

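The authors deposited raw whole-number counts per transcript, with 1 column for each library. Bowtie2 2.2.3 and CASAVA 1.8 are named in the submitters' processing notes. The reference transcriptome and counting rule are not given in the sources used here. The deposited normalized values were not used.

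Libraries were assigned by title. The 24 libraries were filtered with edgeR's filterByExpr (4 collections as groups, minima of 10 counts per library and 15 over all), TMM-scaled (factors 0.900 to 1.15) and tested in edgeR 4.0.16 (R 4.3.3, glmQLFit, quasi-likelihood F test) with tree, day and clock time. Benjamini-Hochberg adjustment ran over all transcripts tested, with a threshold of 0.05. The tree is the replicate block: the labels name it, and same-tree deviations from the clock-time means correlated at 0.781 to 0.905 between 18:00 and 22:00. Evenings alone, the day by time and tree by time interactions, and 2:00 against 14:00 were fitted alike. Libraries of a tree are repeated samples, so p-values measure their spread within 6 trees. Daily courses used log2 CPM with a prior count of 2. The edgeR tests of the nightfall step, of both interactions and of the first evening alone were tried on simulated data with known changes. The second evening, 2:00 against 14:00 and the permutation test were not. The simulated counts were independent draws around fitted tree means, with day where both evenings were used. Apart from the planted changes they held no variation of trees in the step, and the outcome is not given here.

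Named transcripts are the 2 largest rises and falls of at least 10 CPM mean that moved one way in all 12 pairs, the largest evening difference each way, and the smallest p between trees. The members, lists and rules were chosen with earlier results of these data known. Alternatives used DESeq2 1.42.0, limma 3.58.1 (voom), other filters, blocks and thresholds, all 72 libraries, and each tree or 1 pair left out. Reading used data.table in version 1.17.8, and plots used Python 3.11.15 and matplotlib 3.10.9.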

Additional observations from a re-analysis of the deposited data

Results flagged for a closer look

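Among the 6 trees of a collection, 6 values stood apart from the rest, where a nominal rate of 1 in 20 gives 2.2 of the 44 groups looked at. The groups share the same trees and include transcripts picked for large change, so the true rate is not known. The library of tree 3A at 18:00 on the first evening held 55.9 M counts, against 14.0 to 23.2 M in the other 5 trees. The TMM factor of tree 2B at 22:00 on the second evening was 1.14, against 0.970 to 1.02. For psme_t031358 tree 1A was high on the first evening, with 19.7 CPM at 18:00 (others 5.42 to 10.7) and 271 CPM at 22:00 (others 24.04 to 51.7), and tree 2B was high at 18:00 on the second, with 15.6 CPM (others 3.21 to 7.51). Without tree 1A the log2 change of psme_t031358 was 2.69. For psme_t044566 tree 2B was low at 22:00 on the first evening, with 3.64 CPM (others 14.6 to 20.7), and without tree 2B its log2 change was −3.08.

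The response differed between the 2 evenings for 29 transcripts by the test of the difference itself, with the largest differences at 10 CPM or more being 1.31 (psme_t025353) and −1.12 (psme_t044649) on the log2 scale.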

How the results depend on the processing

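The 4 transcripts named for nightfall kept their direction and passed in every fit that tested them. With the tree left out of the model (no replicate block) 2068 rose and 1443 fell (423 of them at least 2-fold), 214 rose and 105 fell on the first evening, 542 and 352 on the second, and 0 differed between evenings. With a replicate block for each tree and day 6278 rose, 6212 fell and 23 differed between evenings. With at least 1 CPM in every library, which tested 20386 transcripts, 3549 rose and 3233 fell (262 and 95 at least 2-fold), 2391 and 2262 on the second evening, and 64 differed between evenings. With no filter 11727 fell, and 4529 rose and 6761 fell at least 2-fold. On the first evening 4815 rose and 6015 fell without the filter, and on the second 6102 rose and 4606 fell. The unfiltered fit of both evenings passed 719 differences between evenings and 2079 between trees. In that unfiltered fit adjusted p-values were far smaller for every named transcript. All 72 libraries gave 3355 falls and 2 evening differences, DESeq2 223 evening and 326 tree differences, limma-voom 2 tree differences, and 15 transcripts differed between evenings without the pair of tree 3A on day 1. At an adjusted p under 0.01, 3949 fell, 1431 rose and 926 fell on the first evening, 2297 and 1680 on the second, and 4 differed between evenings. At least 2-fold changes were 1539 rises and 696 falls.

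Leaving out each tree in turn gave 5233 to 6409 rises and 4773 to 5640 falls in all, 1497 to 1756 and 686 to 788 of at least 2-fold, 1879 to 3572 rises and 1309 to 2824 falls on the first evening (1879 and 1309 without 2B, 1509 falls without 2A), 3108 to 3997 and 2403 to 3010 on the second, 0 to 54 evening differences and 0 to 180 tree differences. The change in the share of the 10 most abundant transcripts was −1.22 percentage points over 12 pairs too, with a permutation p of 0.336. The causes of these shifts were not tested, and many of the fits also differed in the number of transcripts or libraries. Depth limits the rarer transcripts most.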
